A study of Homo sapiens with 4 samples.

Results

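The genes described here are 10 cell adhesion genes and regulators of the epithelial-mesenchymal transition (EMT), the programme in which epithelial cells lose tight cell contacts and take on features of migratory cells. They are the cadherins CDH1, CDH2, CDH3 and CDH11, the immunoglobulin-type adhesion molecules NRCAM and MCAM, the intermediate filament protein VIM, and the transcription factors SNAI2, ZEB1 and ZEB2. The 10 genes were chosen by name with their measured differences on these arrays already known, so every value below is a description and carries no test. They are 10 of 18417 genes that had at least 1 probe set naming no other gene. All 10 were measured, by 11 such probe sets, and for ZEB2, which had several, the probe set with the highest mean was used.

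RNA came from MCF12A, an established non-tumorigenic human breast epithelial line, grown as monolayers. The medium held horse serum with added insulin, hydrocortisone, cholera toxin and epidermal growth factor. There were 4 Affymetrix Human Gene 1.0 ST arrays, 1 for each culture: an unexposed culture (control 1) with its partner kept in 25 mM ethanol for 1 week, and another unexposed culture (control 2) with its partner kept in 2.5 mM acetaldehyde, the first oxidation product of ethanol, for 1 week. The 4 cultures share the line and the medium. With 1 array in each group there are no replicates, and no difference below could be set against a replicate error.

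Cadherins hold neighbouring cells together by binding cadherins on the next cell, and their tails are tied to actin by catenins. E-cadherin (CDH1) is the main adhesion protein of epithelia, and P-cadherin (CDH3) is characteristic of the basal layer of the breast. In EMT, repressors of the SNAI and ZEB families bind E-box sequences in epithelial promoters, while N-cadherin (CDH2), cadherin-11 and vimentin come up. Mammary basal cells normally hold some of these features, including SNAI2 and vimentin, without being mesenchymal cells.

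The median intensity over 33297 probe sets was 92.2 and 90.2 in the ethanol pair and 113.8 and 112.99 in the acetaldehyde pair, and the value distributions lay much closer within a pair than between pairs. The comparison of both controls thus also carries a difference in scale between experiments. Any comparison of an exposed array with the other experiment's control carries it too. A gene was called kept when at least 1 array showed an intensity of 155 or more, the median over the probe sets naming 1 gene. That held for 8 of the 10 genes and for 10373 genes in all, and CDH2 and ZEB2 stayed below it on all 4 arrays. The cells carried epithelial markers, with the basal keratin KRT5 at 9757 to 12169 and the simple keratin KRT18 at 2134 to 3917. Of 10 fibroblast markers 2 were kept (DCN and COL1A1), and of 8 endothelial markers only CLDN5 was. Of 5 leukocyte markers measured 2 were kept, CD68 (1622 to 1917) and CD14 (183 to 287). The fibroblast receptor PDGFRA (27.8 to 37.3), the collagen-binding LUM (8.67 to 16.4) and the leukocyte antigen PTPRC (10.3 to 15.9) lay below the lower quartile of every array, which ran from 29.7 to 42.3, except PDGFRA with ethanol.

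The epithelial cadherin CDH1 (probe set 7996837) was brightest in the ethanol pair and dimmer in both arrays of the acetaldehyde experiment. Its intensity was 2572 in control 1 against 2062 with ethanol, and 1025 in control 2 against 768 with acetaldehyde. Both exposed arrays were below their own control, by a log2 difference of -0.32 (1.25-fold) with ethanol and -0.42 (1.33-fold) with acetaldehyde, whereas control 2 was 2.51-fold below control 1 with no exposure at all. The ethanol value therefore lay between the controls, and the acetaldehyde value lay below both.

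CDH3 (probe set 7996819), which sits next to CDH1 in the genome with 0 protein-coding genes between them, did not follow its neighbour. It read 3277 in control 1 against 4753 with ethanol, and 4186 in control 2 against 4082 with acetaldehyde. Control 1 was the low array, and ethanol was 1.45-fold above it (0.54 in log2) while acetaldehyde was within 0.04 of control 2. N-cadherin, CDH2 (probe set 8022674), was dim throughout, below the median of every array, at 59.2, 79.2, 70.2 and 93.3 in the same order. Each exposed array was the brighter of its pair, by 0.42 with ethanol and 0.41 with acetaldehyde, but at this brightness the size is least certain.

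CDH11 (probe set 8001800), a cadherin of mesenchymal and bone-forming cells, was the cadherin furthest apart. Its intensity was 138 in control 1 against 484 with ethanol, and 42.5 in control 2 against 41.1 with acetaldehyde. Ethanol was 3.52-fold above its control (1.82 in log2), and only the ethanol array reached 155. Both arrays of the acetaldehyde experiment were close to the lower quartile of their array (41.9 and 42.3), so the acetaldehyde difference of -0.05 compares values near background, and the 3.24-fold gap between the controls rests on a dim value too.

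**Figure D1:**
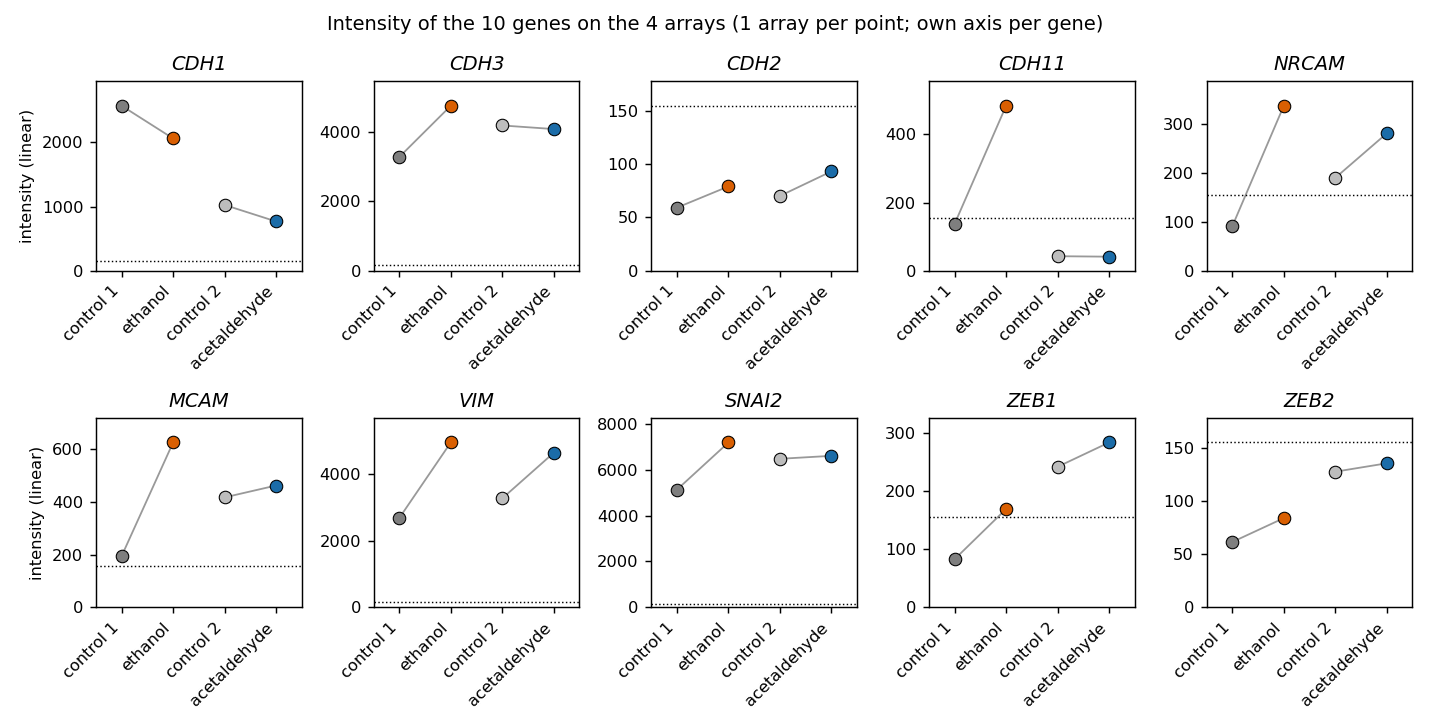
Intensity (linear scale, own axis from 0 for each gene) of the 10 genes on the 4 arrays, 1 point per array, with a line joining each exposed array to its own control and a dotted line at the filter intensity of 155. CDH11, NRCAM, MCAM, CDH3, VIM and SNAI2 were highest with ethanol. ZEB1 and ZEB2 were higher in both arrays of the acetaldehyde experiment than in both of the ethanol experiment.

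NRCAM (probe set 8142270), an L1-family adhesion molecule best known from axons, read 90.6 in control 1 against 336 with ethanol, and 189 in control 2 against 280.0 with acetaldehyde. Both exposed arrays were above both controls. Ethanol was 3.71-fold above control 1 (1.89 in log2), the 6th highest difference of the 10373 kept genes. Acetaldehyde was 1.48-fold above control 2 (0.57), at position 87, the highest acetaldehyde difference of the 10 genes, and control 2 was itself 2.09-fold above control 1. The control 1 value lay below the median of its array, and the ethanol difference was 1.46 with an offset of 50 and 0.83 against control 2.

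MCAM (probe set 7952205), also called CD146, binds laminin and is known from endothelium, smooth muscle and melanoma. It read 194 in control 1 against 624 with ethanol, and 416 in control 2 against 461 with acetaldehyde, and was above 155 on every array. Control 1 was the low array. Ethanol was 3.21-fold above it (1.68 in log2, position 11), acetaldehyde was 1.11-fold above control 2 (0.15), and control 2 was 2.14-fold above control 1, which left an ethanol difference of 0.58 against control 2. The endothelial cadherin CDH5 (59.3 to 80.8) and PECAM1 (54.9 to 61.5) were below the median of every array, but the endothelial marker CLDN5 was kept (151 to 191). Of 6 pericyte or smooth muscle markers 2 were kept, NOTCH3 (319 to 992) and DES (120 to 221).

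Promoter sequence is shown for MCAM, as a gene at least 2-fold higher with ethanol, and further on for ZEB1. RefSeq promoter windows were found for 6 of the 10 genes (CDH2, NRCAM, MCAM, VIM, ZEB1 and ZEB2). The 250 bases before the outermost start in the table were searched on both strands for CACCTG, the E-box read by SNAI and ZEB factors, which reads CAGGTG on the other strand, and for the cyclic AMP element TGACGTCA, and the motifs do not overlap. The MCAM window (chr11:119317131-119317380, GRCh38.p14, minus strand) holds 1 of each, in capitals, the E-box 230 to 235 bases and the cyclic AMP element 25 to 32 bases before the start.
MCAM promoter: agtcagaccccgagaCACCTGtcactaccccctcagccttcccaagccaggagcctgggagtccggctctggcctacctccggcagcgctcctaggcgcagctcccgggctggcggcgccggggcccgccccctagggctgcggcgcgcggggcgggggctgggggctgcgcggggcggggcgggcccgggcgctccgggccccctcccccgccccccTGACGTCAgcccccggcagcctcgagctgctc
Of 27305 such windows in the RefSeq table, 17.5% hold the E-box and 1.75% the cyclic AMP element. Among the 6 windows, those of NRCAM, MCAM and ZEB1 hold 1 E-box each. A match says only that the letters are present.

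VIM (probe set 7926368), the filament protein that marks mesenchymal cells and is also made by basal-like breast lines, was bright on all 4 arrays. It read 2677 in control 1 against 4939 with ethanol, and 3264 in control 2 against 4630.0 with acetaldehyde, so both exposed arrays lay above both controls. Ethanol was 1.85-fold (0.88 in log2) and acetaldehyde 1.42-fold (0.50) above its own control, and the controls were 0.29 apart. Of the 10 genes, NRCAM and VIM were the pair in which each exposure exceeded its control by more than the upper end of the central 95% of the kept genes, which was 0.80 for ethanol and 0.41 for acetaldehyde. That range is a spread over genes between 1 array and 1 array, not a replicate error. The 10 genes were picked with these values known, so nothing is read from passing it.

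SNAI2 (probe set 8150698), also called Slug, is a repressor of CDH1 and a factor of mammary basal and progenitor cells. It was bright on every array, at 5128 in control 1 against 7182 with ethanol, and 6471 in control 2 against 6600.0 with acetaldehyde. Control 1 was again the low array, with ethanol 1.40-fold above it (0.49 in log2), while acetaldehyde was within 0.03 of control 2.

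ZEB1 (probe set 7926916), a zinc finger and homeobox repressor of CDH1, read 82.8 in control 1 against 169 with ethanol, and 241 in control 2 against 283 with acetaldehyde. The arrays of the acetaldehyde experiment were both above those of the ethanol experiment. Ethanol was 2.04-fold above control 1 (1.03 in log2), whose value lay below its array's median, but below control 2, against which the difference turned to -0.51. The gap between the unexposed cultures, 2.92-fold (1.54), was larger than that with ethanol, and acetaldehyde was 1.17-fold above control 2 (0.23). The ZEB1 window (chr10:31318167-31318416, GRCh38.p14, plus strand) before its outermost start holds an E-box on the other strand, in capitals, 52 to 57 bases before the start.
ZEB1 promoter: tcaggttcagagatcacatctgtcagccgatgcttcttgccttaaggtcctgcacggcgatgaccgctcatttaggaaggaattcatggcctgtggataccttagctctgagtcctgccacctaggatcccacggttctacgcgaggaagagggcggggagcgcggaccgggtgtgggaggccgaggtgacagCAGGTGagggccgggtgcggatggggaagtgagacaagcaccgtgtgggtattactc
The table lists 7 windows for ZEB1, and this one lies before its outermost start.

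Its paralogue ZEB2 (probe set 8055624) was ordered in the same way at lower brightness, at 61.4 in control 1 against 83.9 with ethanol, and 127 in control 2 against 135 with acetaldehyde. Ethanol was 0.45 and acetaldehyde 0.09 above its own control in log2, and control 2 was 1.05 above control 1. A further ZEB2 probe set (8055639) read 9.51, 9.89, 9.61 and 15.1, below the lower quartile of each array, and showed neither the ethanol difference (0.06) nor that between the controls (0.01).

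ZEB1 and ZEB2 are the best known targets of the miR-200 family, which in turn ZEB factors repress. The mature sequences show its 2 seed groups, with the seed (bases 2 to 8) in capitals and the sequences from RefSeq (GRCh38.p14).
miR-200b-3p: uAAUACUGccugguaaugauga
miR-200c-3p: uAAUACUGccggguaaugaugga
miR-429: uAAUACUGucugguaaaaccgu
miR-200a-3p: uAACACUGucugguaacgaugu
miR-141-3p: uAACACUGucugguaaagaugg
The first 3 share the seed AAUACUG and the others AACACUG. All 5 genes had a probe set of their own, and none reached 155 on any array. MIR200C read 80.8 in control 1 against 77.7 with ethanol, and 130.2 in control 2 against 132 with acetaldehyde, and MIR200B 117, 103, 135 and 136. With ethanol the 5 differed from control 1 by -0.25 (MIR429) to 0.13 (MIR200A), and with acetaldehyde from control 2 by -0.08 to 0.02. A separate RNA extraction was used for miRNA work, per the labels, and mature miRNA levels were not analysed here.

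**Figure D2:**
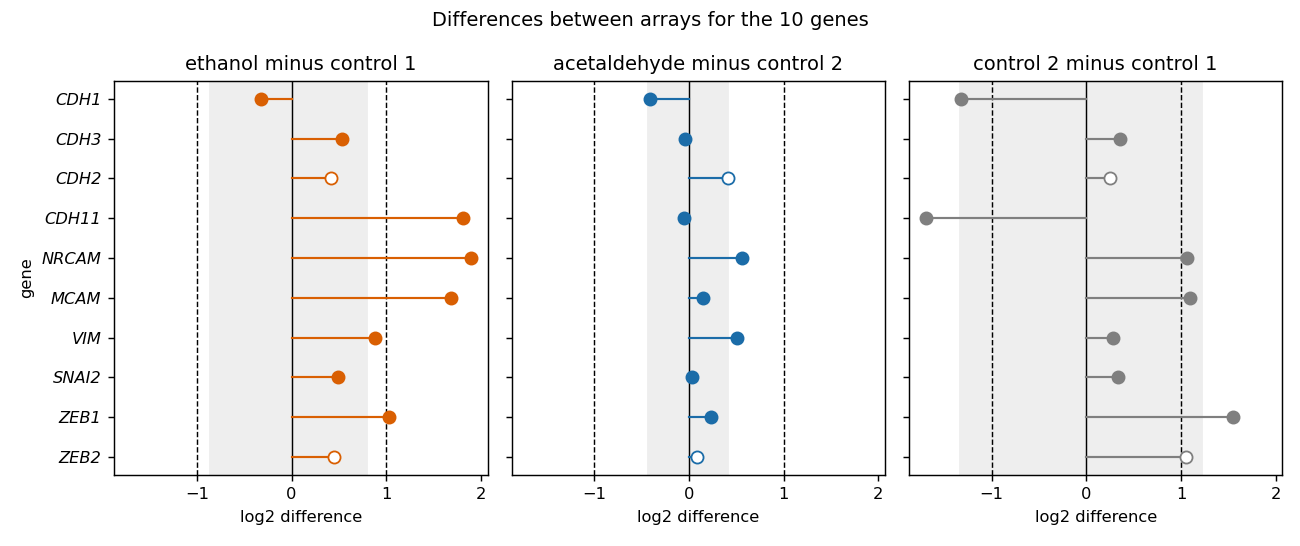
Log2 difference of each of the 10 genes in 3 comparisons of 1 array with 1 array (horizontal axis). Open points are CDH2 and ZEB2, which did not reach the filter, dashed lines mark 2-fold, and the grey band holds the central 95% of the 10373 kept genes. With ethanol 4 genes passed 2-fold, with acetaldehyde 0, and between the controls 6.

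Counted over all 10 genes, 4 were at least 2-fold higher with ethanol (NRCAM, CDH11, MCAM and ZEB1) and 0 at least 2-fold lower. The count was 3 with joint quantile normalization or an offset of 50, where ZEB1 lay at 0.97 and 0.72. Against control 2, on the deposited scale, CDH11 alone of the 4 stayed at least 2-fold higher. That comparison crosses the experiments, and NRCAM was at 0.83, MCAM at 0.58 and ZEB1 at -0.51. With arrays centred on their medians, ethanol and control 2 lay above control 1 by 1.91 and 0.87 for NRCAM. For MCAM these values were 1.70 and 0.91, and for ZEB1 1.05 and 1.36. On that scale NRCAM with ethanol was also more than 2-fold above control 2, MCAM was not, and ZEB1 stayed below it. Against control 1, 1.17% of the kept genes were at least 2-fold higher and 2.11% lower, and of all 18417 genes 0.782% and 1.41%. Since the genes were picked with these differences known, nothing is read from the contrast with those shares. Of the 4, NRCAM, CDH11 and MCAM also lay above both controls, as did 0.848% of kept genes. The median ethanol difference was 0.71 over the 10 genes and 0.05 over the kept genes, with CDH1 as the 1 gene below its control. Above control 1 were 9 of the 10 genes, 57.8% of kept genes and 47.7% of all genes.

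With acetaldehyde 0 of the 10 genes were 2-fold apart in either direction, and such genes were rare everywhere, at 0.0289% higher and 0.212% lower among kept genes and 0.0814% and 0.179% among all genes. The differences ran from -0.42 (CDH1) to 0.57 (NRCAM), with a median of 0.12 against 0.00 over the kept genes. Above 0 were 7 of 10, against 50.7% of kept genes and 45.2% of all genes. Ethanol and acetaldehyde were given at different doses in different experiments, so their values stand side by side and were not compared by a test. Both exposures had CDH1 below and CDH2, NRCAM, MCAM, VIM, SNAI2, ZEB1 and ZEB2 above their own control, with SNAI2 turning to -0.04 with acetaldehyde when all 4 arrays were normalized together.

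The unexposed cultures differed from each other as well. Control 2 was at least 2-fold above control 1 for ZEB1, MCAM, NRCAM and ZEB2, 4 of 10, against 4.25% of kept and 5.36% of all genes. It was at least 2-fold below for CDH11 and CDH1, 2 of 10, against 4.85% and 2.98%. The count of 4 became 2 (ZEB1 and MCAM) with joint quantile normalization and 1 (ZEB1) with median centring or an offset of 50, while ZEB1, MCAM, NRCAM and ZEB2 kept their sign in each. Centring moved the median of all kept genes in this comparison by -0.19. The comparison shares control 1 with that of ethanol, so the pair of values for a gene is not independent: NRCAM was at 1.89 with ethanol and 1.06 between the controls, MCAM at 1.68 and 1.10, ZEB1 at 1.03 and 1.54, and CDH11 at 1.82 and -1.69.

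Markers of other cell types also differed between the experiments. The summed intensity of 10 fibroblast markers was 671 in control 1 against 585 with ethanol, and 1039 in control 2 against 1001 with acetaldehyde, and the proteoglycan DCN read 34.8, 34.6, 177 and 187. For 4 measured neural markers the sums were 479, 535, 865 and 912, with SOX10 at 1.28 in control 2 against control 1. For 10 luminal markers, 7 of them kept, they were 9979, 13268, 7149 and 7195, highest with ethanol. That sum was carried by KRT8 (0.75), KRT18 (0.63) and EPCAM (0.70), while the other 4 of the 7 kept were lower with ethanol, MUC1 (-0.38) among them, and the list median was -0.15. For 8 basal markers, 6 kept, the sums ran from 25323 to 26681, but the members moved apart: KRT14 read 5075, 3212, 1587 and 822, and LAMB3, a laminin chain, was 2.54-fold higher with ethanol. For 6 pericyte or smooth muscle markers, 2 of them kept, they were 1241, 637, 1528 and 1210.3, lowest with ethanol. Most of that drop was NOTCH3 itself, at 844 in control 1 against 319 with ethanol (-1.40). For 5 leukocyte markers the sums were 1934 to 2352, mostly CD68, and for 4 adipocyte markers 228 to 310.4. For 8 endothelial markers they ran from 449 with ethanol to 599.7 in control 2. The fibroblast sum was lower with ethanol than in control 1, while NRCAM, CDH11, MCAM and ZEB1 were higher with ethanol. This sum was higher in control 2 than in control 1, as were ZEB1, ZEB2, NRCAM and MCAM, while CDH11 and CDH1 were lower in control 2. It rests mostly on dim probe sets, 8 of 10, and the medians of the arrays also differed between the experiments. The part of these markers in the values of these genes was not tested, and with bulk RNA fewer cells of a type and less RNA per cell cannot be told apart.

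Genes that act on or with these 10 were examined as 11 lists, without the 10 genes themselves, counting kept genes. Beside the counts by direction, 57.8% of all kept genes were higher with ethanol, 50.7% with acetaldehyde and 54.5% in control 2 against control 1. At least 2-fold higher and lower were 1.17% and 2.11% of kept genes with ethanol, and 0.0289% and 0.212% with acetaldehyde. In control 2 against control 1 they were 4.25% and 4.85%. No share was counted against the other experiment's control. The lists were chosen with earlier results known, so nothing is read from the contrast with these shares. The epithelial factors that oppose ZEB1 were lower with ethanol for 10 of 10, with 6 at least 2-fold lower and a median of -1.32. EHF, an ETS factor of glandular epithelium, was 9.71-fold lower, at 191 against 1854 in control 1, and 514 in control 2. The grainyhead factors GRHL1 and GRHL2, which maintain epithelial junction genes, were 6.71-fold and 5.30-fold lower, and OVOL1, a repressor of ZEB1 in epithelia, 3.15-fold. Control 2, unexposed, was itself 3.58-fold below control 1 for GRHL1 and 3.20-fold for GRHL2. Against it the ethanol differences were -0.91 and -0.73, both under 2-fold. GRHL2 reached the filter in control 1 alone, and its ethanol value of 49.7 was below the array median. Acetaldehyde was lower for 9 of 10, with none 2-fold and a median of -0.34, and control 2 lay below control 1 for 9 of 10 with a median of -0.89. Set against control 2, the ethanol median was -0.60, and 2 of the 10, EHF and OVOL1, were at least 2-fold lower in place of 6.

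Epithelial genes known as ZEB targets gave a mixed picture. With ethanol 14 of 17 were lower, 4 of them at least 2-fold, with a median of -0.25, which was -0.01 against control 2. RAB25, a vesicle-sorting GTPase of epithelia, was 8.09-fold lower, the protease PRSS8 2.55-fold, the polarity protein LLGL2 2.08-fold and the lipid enzyme CDS1 2.03-fold. Against control 2 none of the 17 was at least 2-fold lower with ethanol: PRSS8 was at -0.091, LLGL2 at -0.22, CDS1 at -0.16 and RAB25 at -0.15. EPCAM went the other way, at 0.70 with ethanol and 0.35 with acetaldehyde against its own control. With ethanol it was the 1 gene of the 17 at least 2-fold higher than in control 2. For RAB25 the intensity was 983 in control 1 and 122 with ethanol, but also 134 in control 2 and 99.0 with acetaldehyde, so control 1 was the array apart. With acetaldehyde 14 of 17 were lower with a median of -0.12, and between the controls 13 of 17 with a median of -0.84.

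Among the mesenchymal genes, 8 of 11 were higher with ethanol and 3 at least 2-fold, with a median of 0.59 that turned to -0.05 against the other experiment's control. TNC, an extracellular matrix glycoprotein, read 186 in control 1 against 397 with ethanol, and 119.96 in control 2 against 110 with acetaldehyde, the order seen for CDH11. Fibronectin FN1 read 446, 1124, 5329 and 7363, with the experiments further apart than either pair. The gelatinase MMP2 read 195, 478, 495 and 537, with control 1 alone low, so that TNC was the 1 of these 3 still at least 2-fold higher against control 2. In that comparison 2 of the 11, FN1 and LOX, were at least 2-fold lower with ethanol. LOX read 311, 473, 2371 and 2280 in the same order. With joint quantile normalization TNC was at 0.97. TAGLN, an actin-binding protein, was at -0.96 with ethanol, between the controls. With acetaldehyde 4 of 11 were higher and the median was -0.06, which turned to 0.51 against control 1.

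The partners on which cadherins act were less far apart. Of 13 kept catenins, nectins and other partners 1 was at least 2-fold apart with ethanol, NECTIN4, an adhesion receptor of epithelia, 3.83-fold lower. Control 2 was itself 2.31-fold below control 1 for NECTIN4, and against control 2 the ethanol difference was -0.73, under 2-fold. Plakoglobin JUP was at -0.81, NECTIN2 at -0.65 and NECTIN3 at 0.98, and the list median of -0.11 turned to 0.23 against control 2. JUP was also at -0.50 with acetaldehyde, the lowest of that list. Of 16 further cadherins measured, only CDH24 was kept, at 0.28 with ethanol and -0.27 with acetaldehyde, with both signs turned against the other control. Among 8 other immunoglobulin adhesion molecules none was 2-fold apart with either exposure. ICAM1, a leukocyte adhesion receptor, was at 0.99 and JAM3, a junction protein, at 0.85 with ethanol, and both were higher still in control 2 (1.64 and 1.86 above control 1). The laminin receptor BCAM was at -0.60 with ethanol. CXADR, a junction protein known as a virus receptor, was lower with ethanol (-0.89), with acetaldehyde (-0.61) and in control 2 against control 1 (-1.34), so the ethanol array lay between the controls.

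Other EMT factors, with 8 kept of 12 measured, had none 2-fold apart with either exposure and medians of -0.03 and -0.07, of which the latter turned to 0.14 against control 1. TWIST1 was at 0.55 with ethanol and 1.32 in control 2 against control 1, TWIST2 at 0.23, FOXC2 at 0.15 and SOX9 at -0.44, and the ethanol values of TWIST1 and SOX9 lay between the controls. SNAI1, the closest relative of SNAI2, was not kept, at 69.3 to 92.1. Corepressors and turnover factors of SNAI and ZEB proteins (14 kept) had none 2-fold apart with an exposure, with RCOR1 at -0.43, BTRC at -0.31 (both between the controls) and CSNK1A1 at -0.31 with ethanol and FBXW7 at 0.47 with acetaldehyde. In the lists for cadherin processing (11 kept), intermediate filament partners (4) and ankyrin and ERM linkers (7) none was 2-fold apart with an exposure. In the first, with ethanol, the proprotein convertase PCSK6 was at -0.84, the protease ADAM15 at -0.29, the gamma-secretase subunit PSEN2 at 0.29 and the deacetylase HDAC6 at -0.22, and PSEN2 lay between the controls. Among filament proteins plectin PLEC, which links filaments to junctions, was at 0.53, the muscle filament DES at -0.34, the neuronal filament NEFL at 0.33 and NES at -0.28, and NEFL lay between the controls. Among linkers ankyrin ANK3, which binds L1-family molecules, was at -0.67 with ethanol and -0.41 with acetaldehyde, moesin MSN at 0.57, radixin RDX at 0.39 and the scaffold DLG1 at -0.34 with ethanol.

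**Figure D3:**
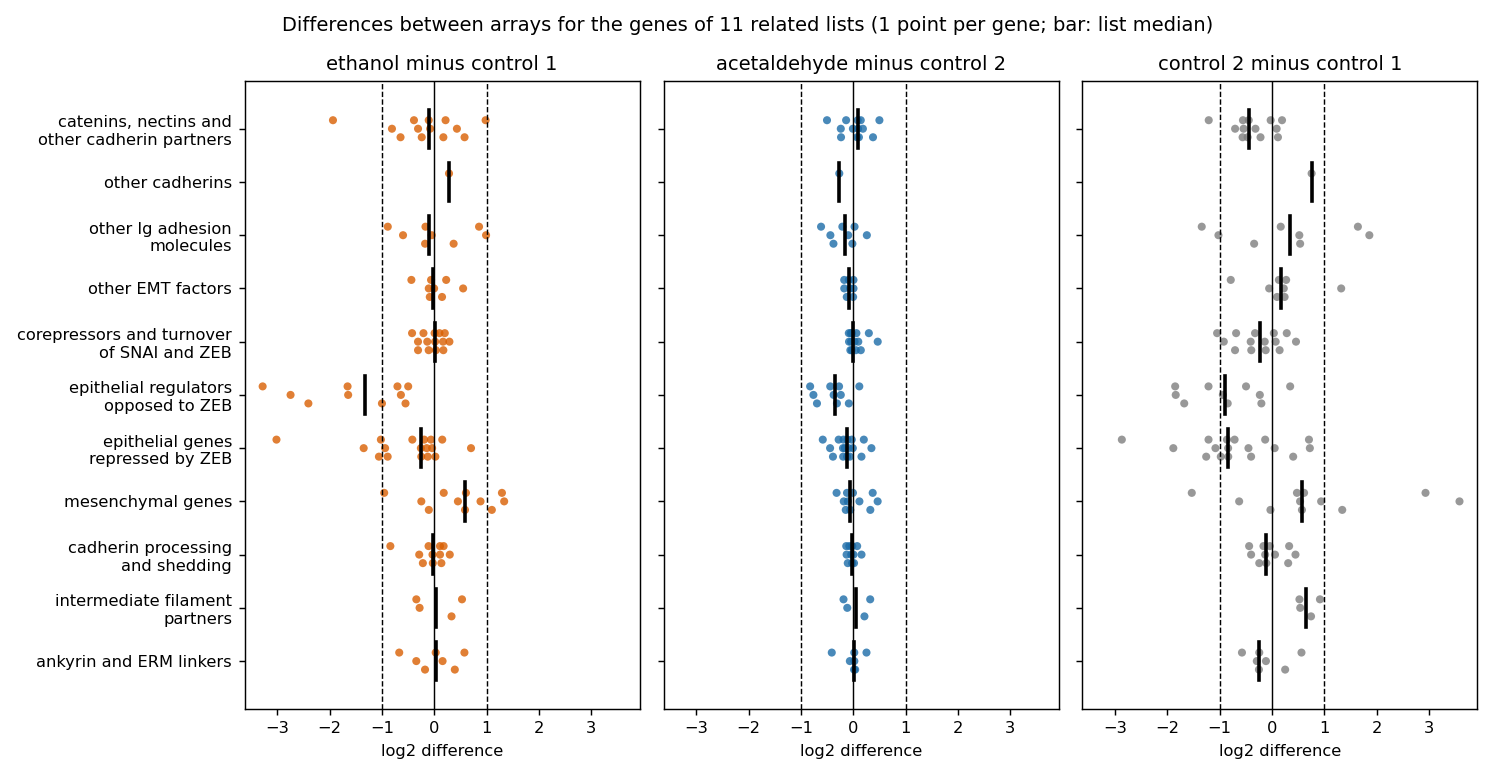
Log2 difference (horizontal axis) of each kept gene of 11 lists related to the 10 genes, in 3 comparisons of 1 array with 1 array, with dashed lines at 2-fold and a bar at the list median. The epithelial regulators opposed to ZEB factors lay furthest below 0 with ethanol (median -1.32) and were below 0 between the controls as well (median -0.89).

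For each of the 8 kept genes, the 2 kept genes outside the 10 with the nearest pattern were found by Euclidean distance over 3 log2 differences from the 4 arrays. The nearest to CDH1 was the fatty acid desaturase SCD, at a distance of 0.0657, then SERINC5. For ZEB1 they were PRTG (0.136) and LAPTM5 (0.151), for VIM KCNJ15 (0.0971) and FSTL1, for SNAI2 STIL (0.0204) and TRERF1, and for CDH3 MCUB (0.0315) and GLB1. The sulfate transporter SLC26A2 was nearest to MCAM (0.171), before CPD, and to NRCAM (0.595), before TLR2. CDH11 had no near match, its closest being the integrin subunit ITGB6 at 0.894 and the urokinase receptor PLAUR at 0.947. With 4 arrays such likeness is a description of these values.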

How the data were processed

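The values deposited by the authors are linear intensity values, 1 for each probe set on each array. RMA is named in the submitters' processing notes, and its software is not given in the sources used here. Pairs appear to have been normalized apart: sorted log2 values differed by a mean of 0.0398 and 0.0268 within pairs and by 0.270 to 0.285 between them. Log2 of the deposited intensity was taken with no offset.

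Of 33297 probe sets the platform annotation gave 1 gene for 19460, several for 1754 and none for 12083, and only the first were used, with the highest mean probe set per gene. Log2 differences were exposed minus own control, and control 2 minus control 1, with 2-fold as threshold and no test, since each group has 1 array. The number of arrays limits the precision.

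The members, the 11 pathway lists and the 8 marker lists were chosen with earlier results of these data known. From each pathway list up to 4 kept genes furthest from their own control are named, with defining markers and the 2 nearest genes in pattern. SNAI1, the miR-200 genes, LOX and, as a ZEB target, EPCAM were named besides, after their values were seen. Alternatives changed the normalization, centring, probe set, offset, filter, threshold and control. Promoter and miRNA sequences are those of the RefSeq tables. Counting and normalization steps were tested on simulated data. Python 3.11.15 with pandas 2.3.3, numpy 2.4.6 and matplotlib 3.10.9 was used.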

Additional observations from a re-analysis of the deposited data

Results flagged for a closer look

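CDH3 and CDH11 lay above their own control with ethanol and close to it with acetaldehyde, and this difference between the exposures was not tested. For CDH3 the log2 difference was 0.54 with ethanol and -0.036 with acetaldehyde. For CDH11 it was 1.82 with ethanol and -0.048 with acetaldehyde, where both arrays were near background. With 1 array per group no value could be set against others of its group.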

How the results depend on the processing

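The 10 genes were counted under 46 alternatives, and 40 counts stayed within 1.5 times the reported one. Many of the 40 were counts of 0 that stayed 0. The alternatives of probe set could move ZEB2 alone, since each other gene had 1 such probe set. For those genes the counts and signs were fixed in advance under these settings. Against the other experiment's control, 2 genes were at least 2-fold higher with ethanol in place of 4, CDH11 (3.51), the 1 gene common to both counts, and CDH1 (1.01), while NRCAM (0.83), MCAM (0.58) and ZEB1 lay under 2-fold, and with acetaldehyde 4 were higher and 2 lower in place of 0. For control 2 against control 1, the count of 4 higher became 2 with joint quantile normalization, 1 with median centring and 1 with an offset of 50. Among single genes with a difference of at least 1, the sign turned under 1 setting, ethanol against control 2, for ZEB1 (-0.51), FN1 (-2.25) and MMP2 (-0.049). The cause was not tested. Values against the other experiment's control were taken on the deposited scale and also carry the difference in scale between experiments. With centring, NRCAM with ethanol was more than 2-fold above control 2 as well. No share of all genes was counted for the other experiment's control. Of 30 differences of the 10 genes, 24 kept their sign under every alternative; the others were CDH1, ZEB1 and ZEB2 with ethanol and CDH3 with acetaldehyde against the other control, and CDH2 between controls and SNAI2 with acetaldehyde under joint quantile normalization. The alternatives for the lists and their genes were chosen after seeing the data. No paired analysis was possible because each group has 1 array. Signals near background limit the sizes given for CDH2, CDH11 and ZEB2, and low values in control 1 those for NRCAM and ZEB1 with ethanol, which an offset of 50 took to 1.46 and 0.72.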
